A study of Mus musculus with 8 samples.

Results

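Neuronal cytoskeleton and synapse genes encode the microtubule proteins, neurofilaments, adhesion molecules, vesicle proteins, receptors and transmitter enzymes that set a neuron apart from other cells. The list holds 39 genes in 7 roles, chosen by name for their known function, but with earlier results of these data known. Each gene is represented by the probe set with the highest mean over all 8 arrays. Of the 39, 38 were measured among the 18193 genes tested, and Grin1, an NMDA receptor subunit, was not analysed here.

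RNA was measured on Affymetrix mouse arrays in 4 groups of 2 cultures, to ask which genes depend on menin, the product of Men1 and a partner of the MLL histone methyltransferases. The groups were menin-null (Men1-KO) PILECs, wild-type PILECs, menin-null mESCs and wild-type mESCs, all of 129S6/SvEvTac background. Here mESCs are mouse embryonic stem cells, and PILECs are islet-like endocrine cells made from them in culture. The line 3.2N carried the Men1 knockout and the line TC1 was wild type, so each genotype is 1 line and genotype cannot be told apart from line. Arrays of a group came from independent cultures, with the feeder cells that support mESCs removed. The p-values below thus speak for cultures of a single line. In bulk RNA fewer cells of a type and less RNA per cell cannot be told apart.

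A neuron extends microtubule-rich axons behind growth cones, braces them with neurofilaments, and releases transmitter when vesicle and plasma membrane SNARE proteins join under the control of synaptotagmin calcium sensors. In non-neuronal cells and stem cells many of these genes are held silent by the repressor REST, which binds a repressor element (RE1) made of a left and a right block of letters. Islet endocrine cells also secrete through SNARE proteins and synaptotagmins and use several of the same genes.

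The promoters of 3 genes on the list are shown because they hold the closest matches to that element. The blocks TTCAGCACC and GGACAGCGC, 2 bases apart, were searched as 18 letters on both strands of the RefSeq promoter windows of assembly GRCm38.p6, from 250 bases before to 50 bases after each gene's start. The windows covered 26 of the 39 genes, and the other 13 had none. A match of at least 15 letters was found in 3 of the 26 genes, Syn1, Gria2 and Gad2. That was 3 of the 44 windows of these 26 genes, beside 0.113% of all 32851 windows (37 windows). A match of at least 16 letters was found in Syn1 and Gria2, 2 of the 44 windows, beside 0.0365% of all windows. The median best match over all windows was 11 letters. In the sequences below the matched site is in capitals, with up to 60 bases on either side in lower case, 5′ to 3′ on the gene's strand. Syn1 is at chrX:20921071-20921168 on the minus strand with the site starting 232 bases before the gene's start, Gria2 at chr3:80802929-80803068 on the minus strand with the site on the opposite strand of the gene from 173 bases before its start, and Gad2 at chr2:22622101-22622240 on the plus strand with the site from 166 bases before its start.
Syn1: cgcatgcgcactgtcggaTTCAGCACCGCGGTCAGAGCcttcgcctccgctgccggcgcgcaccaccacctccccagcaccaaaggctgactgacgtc
Gria2: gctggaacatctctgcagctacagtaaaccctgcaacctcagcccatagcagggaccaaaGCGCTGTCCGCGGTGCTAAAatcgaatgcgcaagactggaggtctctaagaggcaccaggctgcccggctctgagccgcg
Gad2: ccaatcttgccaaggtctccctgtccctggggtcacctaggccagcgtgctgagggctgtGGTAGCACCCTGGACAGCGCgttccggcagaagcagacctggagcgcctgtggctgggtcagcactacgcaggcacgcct
The matches describe these letters only, and binding was not measured here.

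All values are log2 signals as deposited, differences are log2 differences with the standard error (SE) of a limma model fitted to all genes and arrays, and a gene is said to rise or fall where its Benjamini-Hochberg p, adjusted over all 18193 genes, was under 0.05. A group mean under 7 is called low, which is a working limit rather than a background level. The 2 arrays of a group correlated at 0.993 to 0.997 across genes. Men1 itself, the check of the labels, was 7.95 and 8.02 in menin-null PILECs against 10.06 and 9.92 in wild-type PILECs, and 7.77 and 7.82 in menin-null mESCs against 9.90 and 9.97 in wild-type mESCs. It fell in the menin-null cells of both types (by 2.0 ± 0.0859, adjusted p = 7.38e-05, and by 2.14 ± 0.0859, adjusted p = 7.07e-05, ± SE, n = 2 each).

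The islet identity of the PILECs was checked against 13 measured islet endocrine genes. Of these, 7 rose and 1 fell in PILECs over mESCs in menin-null cells, beside 28.9% that rose and 36.1% that fell over all genes. In wild-type cells 5 rose and 3 fell, beside 27.8% and 35.3%. Chgb, the granule protein chromogranin B, rose by 5.62 ± 0.165 in menin-null and 5.60 ± 0.165 in wild-type cells (adjusted p = 6.03e-08 and 7.56e-08). Hormone and regulator genes of the islet were mixed. Sst, which encodes somatostatin, was 7.89 and 8.32 in menin-null PILECs and 9.30 and 8.82 in wild-type PILECs, and rose over mESCs by 1.44 ± 0.228 and 2.42 ± 0.228, and Nkx6-1, a beta cell homeobox factor, rose by 0.77 ± 0.217 and 1.05 ± 0.217. Other genes were low in PILECs, and these include Gcg and Iapp, which counted among the 7 that rose in menin-null cells. Gcg, which encodes glucagon, was 4.95 and 4.57 in menin-null PILECs and 4.35 and 4.37 in wild-type PILECs, Iapp, which encodes amylin, 4.72 and 4.59 and then 4.45 and 4.42, and Pdx1, the pancreatic homeobox factor, 5.16 and 5.57 and then 5.25 and 5.51. Ins2, which encodes insulin 2, was 7.55 and 7.19 in menin-null PILECs and 7.13 and 7.33 in wild-type PILECs, against 7.28 and 7.09 in menin-null mESCs and 6.65 and 6.99 in wild-type mESCs. Ins2 arrays of PILECs and mESCs overlapped in menin-null cells. By other methods the paper reported low to moderate RT-PCR signals of hormone transcripts and insulin staining in PILECs of both genotypes. Among the genes that fell in wild-type cells was Neurod1. The paper used its protein as a differentiation marker and reported that the protein increased on differentiation in both genotypes. Protein was not measured on the arrays. The RNA signal of Neurod1 was 9.10 and 8.80 in wild-type PILECs against 9.47 and 9.32 in wild-type mESCs. In menin-null cells it was 8.53 and 8.83 in PILECs against 8.73 and 8.96 in mESCs.

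The largest pattern over the list was differentiation. In both genotypes the neuronal genes were almost all far higher in PILECs than in mESCs: 36 of 38 rose and 1 fell in menin-null cells, and 37 of 38 rose and 1 fell in wild-type cells. Over all genes tested, 28.9% rose and 36.1% fell in menin-null cells, and 27.8% rose and 35.3% fell in wild-type cells. The median difference of the list was 3.90 in menin-null and 3.55 in wild-type cells, beside -0.07 and -0.08 over all genes. The genes that passed had a further 67 probe sets in menin-null cells, of which 59 had the sign of the one used and 57 of these passed too, and 68 in wild-type cells, of which 61 had the same sign and 57 passed. The mean over the 38 genes was 11.21 and 11.40 in menin-null PILECs and 11.12 and 10.99 in wild-type PILECs, against 7.56 and 7.61 in menin-null mESCs and 7.51 and 7.47 in wild-type mESCs.

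**Figure D1:**
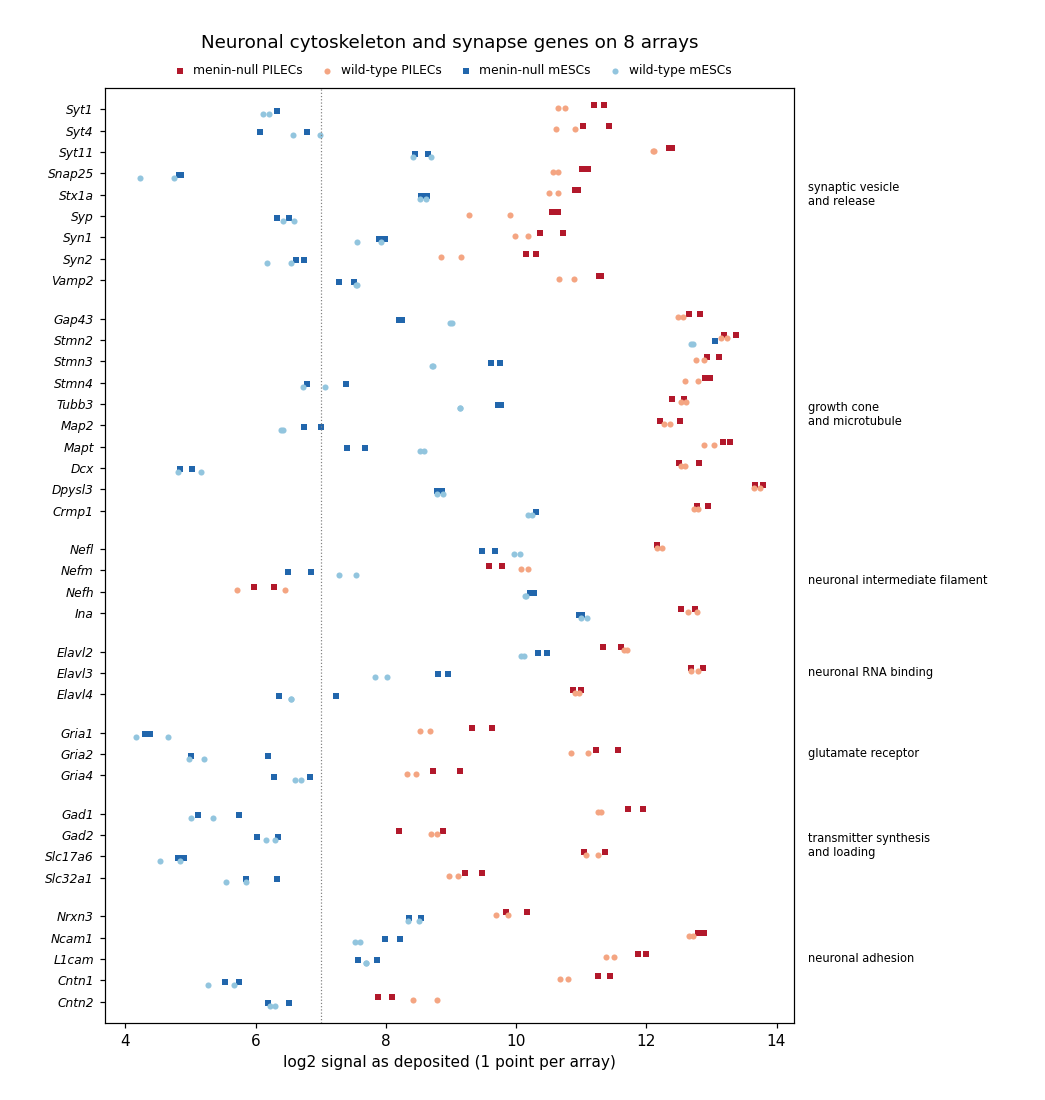
Log2 signal as deposited (horizontal axis, 1 point per array) of the 38 measured neuronal genes, ordered by role, in menin-null PILECs, wild-type PILECs, menin-null mESCs and wild-type mESCs; the dotted line marks 7. Both PILEC groups sit to the right of both mESC groups for all genes but Nefh, which is reversed, and Stmn2 has the narrowest gap on the probe set shown.

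Dcx, which encodes the microtubule protein doublecortin of migrating young neurons, showed the largest difference in both genotypes. Its signal was 12.50 and 12.81 in menin-null PILECs, against 4.84 and 5.02 in menin-null mESCs. In wild-type cells it was 12.53 and 12.59 in PILECs, against 4.81 and 5.16 in mESCs. The groups did not overlap, and the differences were 7.72 ± 0.147 in menin-null cells (adjusted p = 2.04e-08) and 7.57 ± 0.147 in wild-type cells (adjusted p = 2.87e-08), or 211-fold and 191-fold. With the mean over its 4 probe sets in place of the brightest, the differences were 5.15 and 4.92.

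Genes of both fast transmitters were among the leading ones. Slc17a6, the vesicular glutamate transporter VGLUT2, was 11.05 and 11.36 in menin-null PILECs against 4.80 and 4.90 in menin-null mESCs, a difference of 6.36 ± 0.143 (adjusted p = 2.89e-08). It was 11.26 and 11.08 in wild-type PILECs against 4.53 and 4.84 in wild-type mESCs, a difference of 6.48 ± 0.143 (adjusted p = 3.3e-08). Gad1, which makes the inhibitory transmitter GABA from glutamate, was 11.72 and 11.95 in menin-null PILECs against 5.12 and 5.74 in menin-null mESCs, and rose by 6.41 ± 0.204 (adjusted p = 8.17e-08). For both genes the PILEC arrays lay far above every mESC array. The sister enzyme Gad2 and the GABA transporter Slc32a1 rose by less, Gad2 by 2.36 ± 0.209 in menin-null and 2.51 ± 0.209 in wild-type cells, and Slc32a1 by 3.25 ± 0.178 and 3.34 ± 0.178. The rise of Slc32a1 was seen on that probe set alone, and its other 3, all dimmer, differed by -0.69, -0.67 and -0.53 in menin-null cells (adjusted p = 0.111, 0.0299 and 0.0163) and by -0.44, -0.54 and -0.17 in wild-type cells (adjusted p = 0.301, 0.0669 and 0.391).

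The vesicle and release genes rose as a whole, 9 of 9 in each genotype, with a median of 3.90 in menin-null and 3.22 in wild-type cells. Snap25, a plasma membrane SNARE protein of the nerve terminal, led them. Its signal was 10.65 and 10.57 in wild-type PILECs against 4.22 and 4.75 in wild-type mESCs, with no overlap, and it rose by 6.13 ± 0.159 (adjusted p = 4.96e-08). With the mean over its 2 probe sets the difference was 3.33. The least difference in this role was that of Stx1a, the syntaxin partner of Snap25, at 2.34 ± 0.0893 in menin-null and 2.0 ± 0.0893 in wild-type cells.

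The 3 measured glutamate receptor genes of the list, which encode AMPA-type subunits, rose in both genotypes, by 2.38 (Gria4) to 5.79 (Gria2) in menin-null cells and by 1.74 (Gria4) to 5.88 (Gria2) in wild-type cells. Gria3, the remaining AMPA subunit gene and a member of the further synaptic list, rose by 1.38 ± 0.135 in menin-null and 0.98 ± 0.135 in wild-type cells. All 5 adhesion genes rose in both, and Cntn1, an axonal contactin, by the most (5.72 ± 0.15 in menin-null and 5.26 ± 0.15 in wild-type cells). Nrxn3, a presynaptic neurexin, rose by 1.56 ± 0.138 and 1.36 ± 0.138 on its brightest probe set, and its other 4 probe sets rose by more, 1.65 to 4.06 in menin-null and 2.13 to 4.11 in wild-type cells. The 3 Elavl genes, whose products bind and stabilise neuronal mRNAs, also rose in both, Elavl2 by 1.07 ± 0.108 in menin-null and 1.58 ± 0.108 in wild-type cells.

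Some cytoskeletal genes departed from the rest. Nefh, which encodes the heavy neurofilament subunit of mature axons, was the single gene of the list that fell. Its signal was 5.97 and 6.28 in menin-null PILECs and 6.45 and 5.72 in wild-type PILECs, against 10.28 and 10.21 in menin-null mESCs and 10.15 and 10.13 in wild-type mESCs. It fell by 4.12 ± 0.217 in menin-null and by 4.06 ± 0.217 in wild-type cells (adjusted p = 8.86e-07 and 1.04e-06), on the gene's 1 probe set. The light and medium subunits Nefl and Nefm and the related internexin Ina moved the other way, rising by 1.65 (Ina) to 3.01 (Nefm) in menin-null cells and by 1.67 (Ina) to 2.72 (Nefm) in wild-type cells.

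Stmn2, a stathmin that destabilises microtubules in growth cones, had high signals in stem cells already. Its signal was 13.20 and 13.38 in menin-null PILECs and 13.24 and 13.14 in wild-type PILECs, against 13.05 and 13.06 in menin-null mESCs and 12.68 and 12.72 in wild-type mESCs. The difference was 0.23 ± 0.0908 in menin-null cells, which did not pass (adjusted p = 0.0525), and 0.49 ± 0.0908 in wild-type cells, which did (adjusted p = 0.0016). This rests on the brightest probe set: the other Stmn2 probe set rose by 1.94 in menin-null and 2.22 in wild-type cells (adjusted p = 2.78e-07 and 1.72e-07, over all probe sets). The related Stmn4 rose by 5.86 ± 0.197 in menin-null and 5.80 ± 0.197 in wild-type cells. In mESCs of both genotypes 17 of the 38 genes had a mean under 7, so folds over those levels are approximate, and in PILECs of both genotypes 1 gene, Nefh, did. A further 18 genes were at 7 or above in all 4 groups.

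**Figure D2:**
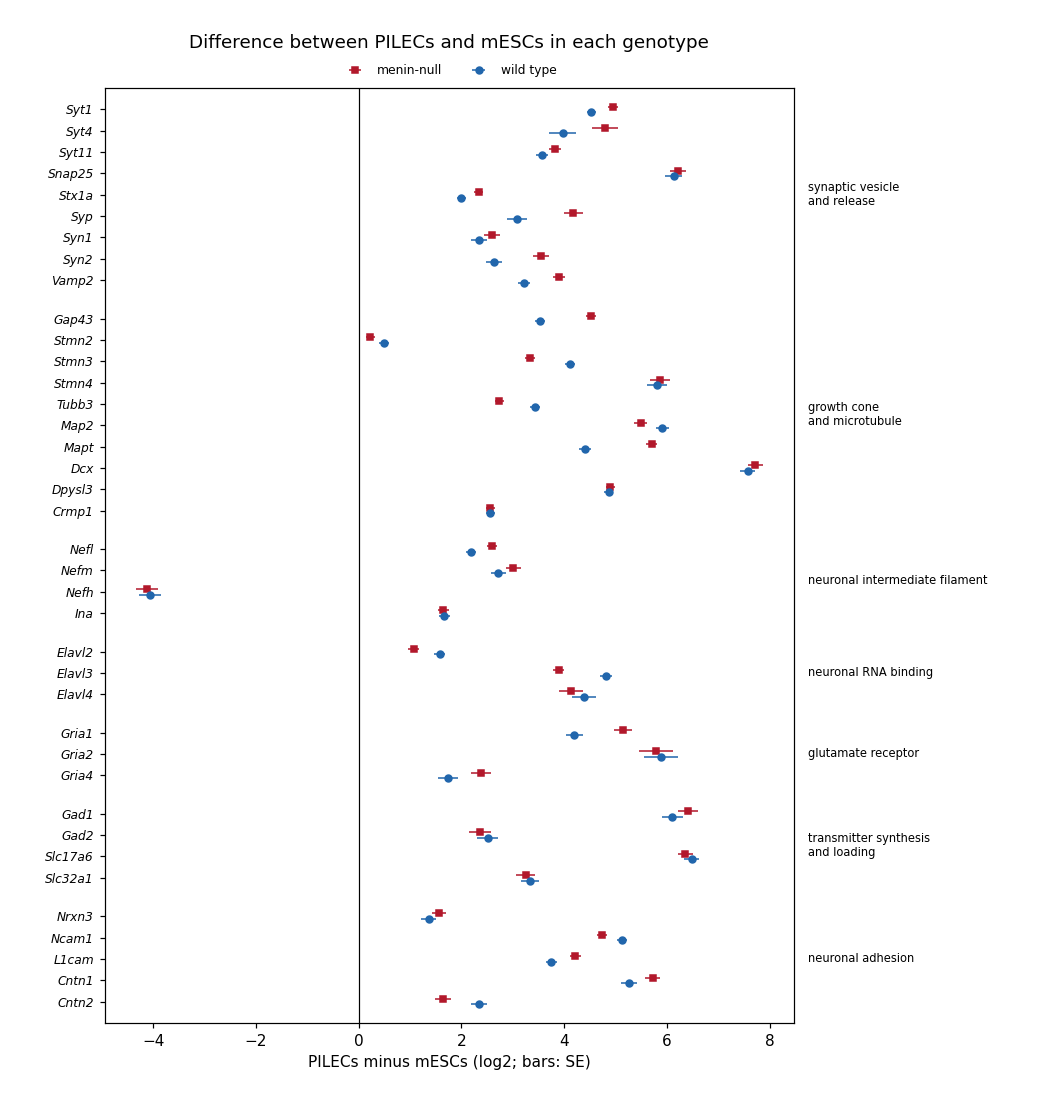
Log2 difference between PILECs and mESCs (horizontal axis, bars are SE) for each neuronal gene in menin-null and wild-type cells, ordered by role. Dcx is farthest to the right at 7.72 and 7.57, Nefh alone lies left of 0 at -4.12 and -4.06, and Stmn2, on its brightest probe set, is nearest to 0.

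Rest, the repressor of many of these genes, went the other way. Its signal was 8.84 and 8.64 in menin-null PILECs against 11.96 and 12.02 in menin-null mESCs, and 8.97 and 9.0 in wild-type PILECs against 12.06 and 12.02 in wild-type mESCs. It fell by 3.25 ± 0.0911 in menin-null cells (9.53-fold, adjusted p = 5.24e-08) and by 3.06 ± 0.0911 in wild-type cells (8.32-fold, adjusted p = 7.94e-08). Of 10 measured genes of Rest and its corepressors, 4 rose and 5 fell in each genotype. Over all genes 28.9% rose and 36.1% fell in menin-null cells, and 27.8% and 35.3% in wild-type cells. The 3 genes with the closest RE1 matches rose by 2.60 ± 0.156 (Syn1), 5.79 ± 0.336 (Gria2) and 2.36 ± 0.209 (Gad2) in menin-null cells and by 2.34 ± 0.156, 5.88 ± 0.336 and 2.51 ± 0.209 in wild-type cells, so that 1 of the 3 lay above and 2 lay below the median of the list in each genotype.

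The neighbouring lists moved the same way as the neuronal genes in part. The shares over all genes were 28.9% risen and 36.1% fallen in menin-null cells, and 27.8% and 35.3% in wild-type cells. Neurogenic transcription factors rose for 16 and fell for 0 of 20 in menin-null cells and rose for 18 and fell for 2 of 20 in wild-type cells, and further synaptic genes rose for 27 and fell for 1 of 35 in menin-null cells and rose for 25 and fell for 1 of 35 in wild-type cells. Neural progenitor genes rose for 6 and fell for 1 of 7 in each genotype. Other cell types rose beside them: 7 of 8 fibroblast genes rose and 1 fell in each genotype, glial genes rose for 6 of 8 in menin-null and 5 of 8 in wild-type cells, and striated muscle genes rose for 5 and fell for 3 of 10 in menin-null and rose for 7 and fell for 2 of 10 in wild-type cells. Of 6 pluripotency genes, 6 fell in each genotype. Their part in the neuronal differences was not tested.

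Between menin-null and wild-type PILECs a few neuronal genes differed on the probe set used for each, all of them higher in menin-null cells. Of 38 neuronal genes 7 rose and 0 fell, beside 2.26% that rose and 4.42% that fell over all genes. By limma 16 of the 38 had an unadjusted p under 0.05, beside 4230 of all 18193 genes. The 7 were the vesicle genes Syn2, Syp, Syt1 and Vamp2, the AMPA receptor subunit gene Gria1 and the adhesion genes L1cam and Cntn1. The median difference of the list was 0.22, beside -0.01 over all genes, and for 21 of the 38 both menin-null arrays lay above both wild-type arrays, beside 24.7% of all genes. For 3 of the 38 both lay below, beside 30% of all genes. Of the 10 growth cone and microtubule genes 0 passed by limma (2 at an unadjusted p under 0.05, median 0.10).

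Syn2, which encodes synapsin II, a protein that tethers vesicles in their reserve pool, differed most. Its signal was 10.15 and 10.31 in menin-null PILECs, against 9.16 and 8.85 in wild-type PILECs. The groups were apart by more than the spread within either, and Syn2 rose by 1.23 ± 0.154 (adjusted p = 0.00593). Of its other 5 probe sets, 3 rose too, by 1.05, 0.71 and 1.08, and 2 did not pass, at 0.16 and -0.03. With the mean over the 6 probe sets the difference was 0.70 (adjusted p = 0.00482).

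Syp, the vesicle membrane protein synaptophysin, was 10.55 and 10.64 in menin-null PILECs, against 9.90 and 9.27 in wild-type PILECs. It rose by 1.01 ± 0.191 (adjusted p = 0.0242), with the 2 wild-type arrays farther from each other than the menin-null ones. A second, dimmer Syp probe set differed by 0.03, and the mean of both by 0.52 (adjusted p = 0.0653). Syt1, the calcium sensor that triggers fast release, was 11.20 and 11.35 in menin-null PILECs against 10.75 and 10.64 in wild-type PILECs. It rose by 0.59 ± 0.0896 (adjusted p = 0.0125), and with the mean over its 4 probe sets it did not pass (0.41, adjusted p = 0.135). Vamp2, the SNARE protein on the vesicle itself, was 11.31 and 11.28 in menin-null PILECs against 10.89 and 10.66 in wild-type PILECs. It rose by 0.52 ± 0.111 (adjusted p = 0.0351).

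The other 5 vesicle genes had differences above 0 without passing, so that all 9 of the role lay above 0 and in all 9 the arrays of the genotypes did not overlap. The nearest to the threshold was Stx1a at 0.36 ± 0.0893 (adjusted p = 0.0565). Synapsin I, from Syn1, which holds one of the printed sites, differed by 0.46 ± 0.156 (adjusted p = 0.131). Snap25 differed by 0.45 ± 0.159, Syt4 by 0.47 ± 0.257 and Syt11 by 0.26 ± 0.116.

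Gria1, an AMPA-type glutamate receptor subunit, was 9.32 and 9.63 in menin-null PILECs, against 8.68 and 8.53 in wild-type PILECs, and rose by 0.87 ± 0.172 (adjusted p = 0.0283). The other AMPA subunits differed without passing, Gria2 by 0.41 ± 0.336, Gria4 by 0.54 ± 0.195 and Gria3 by 0.21 ± 0.135 (adjusted p = 0.406). Among adhesion genes L1cam, an axon growth molecule of the immunoglobulin family, was 11.87 and 11.99 in menin-null PILECs against 11.50 and 11.38 in wild-type PILECs, and rose by 0.49 ± 0.113 (adjusted p = 0.0449). Cntn1 was 11.26 and 11.45 in menin-null PILECs against 10.79 and 10.67 in wild-type PILECs, and rose by 0.63 ± 0.15 (adjusted p = 0.0493). In each of the 3 genes both menin-null arrays lay above both wild-type arrays. With p adjusted over all probe sets L1cam and Cntn1 did not pass (0.0617 and 0.0636). The other L1cam probe set differed by 0.53 without passing (adjusted p = 0.385, over all probe sets). Another Cntn1 probe set rose by 0.70 (adjusted p = 0.0481, over all probe sets), and a dimmer one differed by -0.02 without passing. The related contactin Cntn2 stood out in the other direction at -0.61 ± 0.154 and did not pass (adjusted p = 0.0587). A dimmer Cntn2 probe set did fall, by 0.73 (adjusted p = 0.037, over all probe sets). The rest differed by -0.14 and 0.02 without passing.

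The remaining roles showed smaller differences in PILECs. Neurofilament genes lay between -0.44 (Nefm, adjusted p = 0.124) and 0.04 (Nefh), and the Elavl genes between -0.20 (Elavl2) and 0.03 (Elavl3). Of the transmitter genes Gad1 differed by 0.55 ± 0.204 (adjusted p = 0.153), Slc32a1 by 0.30 ± 0.178, Slc17a6 by 0.03 ± 0.143 and Gad2 by -0.20 ± 0.209. For the microtubule protein Dcx the 95% interval of the difference ran from -0.25 to 0.43.

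**Figure D3:**
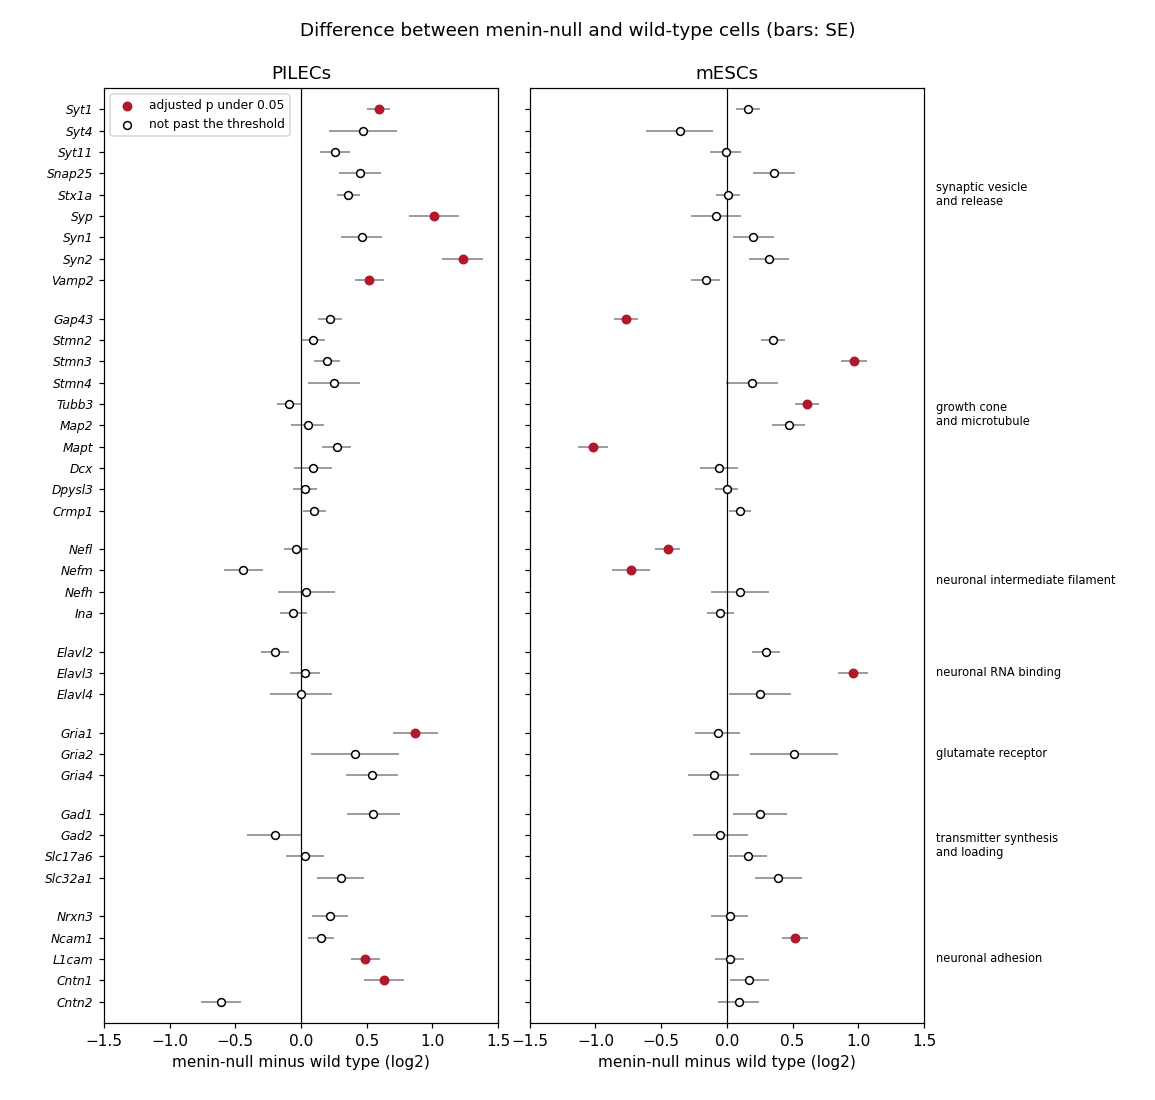
Log2 difference between menin-null and wild-type cells (horizontal axis, bars are SE) for each neuronal gene, in PILECs at left and mESCs at right, ordered by role; filled points passed an adjusted p of 0.05. In PILECs the 7 filled points all lie right of 0 among vesicle, receptor and adhesion genes, and in mESCs 4 filled points lie on each side, 7 of them among cytoskeletal and RNA-binding genes.

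The 38 genes also moved together between cultures of 1 group. Menin-null PILEC array 2 was the higher one for 35 of the 38 genes (median gap 0.19), beside 52.6% of all genes, and wild-type PILEC array 2 was the higher one for 7 of the 38 (median gap -0.12), beside 43.4% of all genes. The count of 7 rested on each PILEC array: by limma, dropping menin-null array 1 left 2, dropping menin-null array 2 left 1, dropping wild-type array 1 left 2 and dropping wild-type array 2 left 0 (with 9 still under 0.05 before adjustment). Over all genes the number that rose was 412 with all arrays and 43 without wild-type PILEC array 2. Syn2 passed in each of the 3 fits that left any gene, and it alone passed in the fit that dropped menin-null array 2.

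Related lists differed in both directions between the genotypes in PILECs, where 2.26% of all genes rose and 4.42% fell in menin-null cells. By limma 4230 of all 18193 genes had an unadjusted p under 0.05 there. Of 35 further synaptic genes 5 rose and 1 fell, with the lowest p for Rab3b, a vesicle GTPase, at 8.45 and 8.50 in menin-null PILECs against 7.88 and 7.78 in wild-type PILECs (0.64 ± 0.0867, adjusted p = 0.00779). Of 20 neurogenic transcription factors 0 rose and 7 fell, with the lowest p for Ebf1, a factor of early neuronal differentiation. Its signal was 8.43 and 8.47 in menin-null PILECs against 9.80 and 9.60 in wild-type PILECs, and it fell by 1.25 ± 0.0915 (adjusted p = 0.000719). The counts ranged from 0 to 6 risen synaptic genes and from 2 to 9 fallen factors when arrays were left out one at a time, with 2 and 4 fallen factors after dropping menin-null PILEC arrays 1 and 2, and 3 after dropping wild-type PILEC array 1 or 2. The further synaptic genes that rose numbered 2 and 1 after dropping menin-null PILEC arrays 1 and 2, 0 after dropping wild-type PILEC array 1 or 2, and 3 after dropping wild-type mESC array 1 or 2. Of the Rest and corepressor genes 0 of 10 passed by limma, and 5 had an unadjusted p under 0.05. Rest differed by -0.25 ± 0.0911 (adjusted p = 0.154), and Hdac1, a histone deacetylase, had the lowest p (-0.29 ± 0.0801, adjusted p = 0.0766).

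Markers of other cell types moved with genotype in the same PILEC cultures, beside 2.26% that rose and 4.42% that fell over all genes. The unadjusted p by limma was under 0.05 for 4230 of all 18193 genes. Glial genes rose for 4 of 8, and their summed log2 level was 64.5 to 64.7 in menin-null PILECs and 59.8 to 60.4 in wild-type PILECs. Gfap, the astrocyte filament, was 8.64 and 8.84 in menin-null PILECs against 7.41 and 7.45 in wild-type PILECs (1.31 ± 0.11, adjusted p = 0.00162). Striated muscle genes fell for 8 of 10, with sums of 70.6 to 73.7 in menin-null and 83.6 to 86.4 in wild-type PILECs, and Tnnt1, a slow muscle troponin, had the lowest p at 6.38 and 6.28 in menin-null against 7.58 and 7.78 in wild-type PILECs (-1.35 ± 0.0961, adjusted p = 0.000659). Pluripotency genes fell for 5 of 6, with sums of 48.2 to 48.8 in menin-null and 52.7 to 54.3 in wild-type PILECs, and Dppa5a, a stem cell RNA-binding protein, was 11.23 and 11.30 against 12.37 and 12.16 (-1.0 ± 0.0933, adjusted p = 0.00238). Fibroblast genes rose for 1 (Thy1, a surface protein that neurons also carry, 1.01 ± 0.082, adjusted p = 0.00141) and fell for 2 of 8, with sums of 84.7 to 87.9 in menin-null and 86.3 to 87.7 in wild-type PILECs. Neural progenitor genes passed for 0 of 7 by limma (2 at an unadjusted p under 0.05, lowest p for Nes, which encodes nestin, -0.35 ± 0.0953, adjusted p = 0.071), with sums of 71.3 to 72.2 in menin-null and 72.5 to 72.9 in wild-type PILECs. Islet endocrine genes passed for 0 of 13 (5 at an unadjusted p under 0.05), with the lowest p for Sst (-0.95 ± 0.228, adjusted p = 0.0505), and sums of 87.5 to 88.2 in menin-null and 86.5 to 87.5 in wild-type PILECs. With single PILEC arrays dropped, the glial genes that rose numbered 1 and 3 (menin-null arrays 1 and 2) and 2 and 1 (wild-type arrays 1 and 2), the muscle genes that fell 5 and 5 and then 6 and 4, and the pluripotency genes that fell 3 and 4 and then 3 and 5. The part of these cell types in the neuronal differences was not tested.

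**Figure D4:**
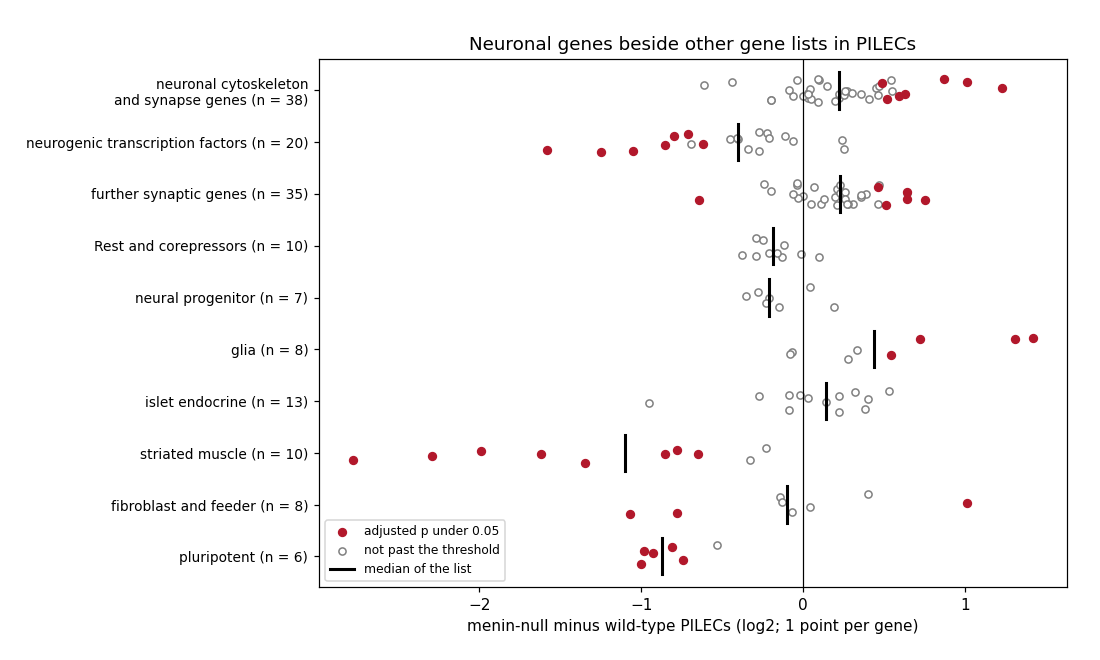
Log2 difference between menin-null and wild-type PILECs (horizontal axis, 1 point per gene) for the neuronal genes and 9 other lists; filled points passed an adjusted p of 0.05 and the bar is the list's median. The neuronal genes have their filled points right of 0 with a median of 0.22, while neurogenic transcription factors (median -0.41), striated muscle and pluripotency genes have theirs left of 0.

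In mESCs neuronal genes differed between the genotypes in both directions. Of 38 genes 4 rose in menin-null mESCs (Stmn3, Elavl3, Tubb3 and Ncam1) and 4 fell (Mapt, Gap43, Nefm and Nefl), beside 1.29% that rose and 2.36% that fell over all genes. The median difference was 0.10, beside 0.01 over all genes. By limma 11 of the 38 had an unadjusted p under 0.05, beside 3370 of all 18193 genes. Both menin-null arrays lay above both wild-type arrays for 13 of the 38, beside 24.1% of all genes, and below for 5, beside 24.9%. Of the 9 vesicle genes 0 passed by limma, and 0 had an unadjusted p under 0.05.

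Stmn3, a Golgi-bound stathmin, was 9.61 and 9.75 in menin-null mESCs, against 8.72 and 8.71 in wild-type mESCs, and rose by 0.97 ± 0.0982 (adjusted p = 0.00487). Elavl3, the neuronal RNA-binding protein HuC, was 8.80 and 8.96 in menin-null mESCs against 7.83 and 8.02 in wild-type mESCs, and rose by 0.96 ± 0.113 (adjusted p = 0.00729). Tubb3, the neuron-specific beta-tubulin, was 9.77 and 9.72 in menin-null mESCs against 9.14 and 9.14 in wild-type mESCs, and rose by 0.61 ± 0.0907 (adjusted p = 0.0162). In all 3 the genotypes lay apart, and both lay below every PILEC array of the same gene. Ncam1, the neural cell adhesion molecule, was 7.98 and 8.21 in menin-null mESCs against 7.61 and 7.53 in wild-type mESCs, and rose by 0.52 ± 0.1 (adjusted p = 0.0342). Its direction depended on the probe set: with probe sets whose names end in _s_at, _x_at or _a_at left out, designs that can match several transcripts, another one stood for Ncam1 and differed by -0.14 (adjusted p = 0.676). That one was dim, with a mean of 6.68 over the 8 arrays. The next brightest Ncam1 probe set rose by 0.72 (adjusted p = 0.0158, over all probe sets). The rest, at -0.29 to 0.30, did not pass.

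Mapt, the axonal microtubule protein tau, was 7.40 and 7.68 in menin-null mESCs, against 8.53 and 8.58 in wild-type mESCs, and fell by 1.02 ± 0.113 (adjusted p = 0.00575). All of its 4 probe sets were lower in menin-null mESCs. Gap43, a growth cone protein that regulates actin, was 8.20 and 8.25 in menin-null mESCs against 8.98 and 9.01 in wild-type mESCs, and fell by 0.77 ± 0.0909 (adjusted p = 0.00707). Both genes had a wide gap between the genotypes beside the gap within each. Nefm was 6.49 and 6.85 in menin-null mESCs against 7.54 and 7.28 in wild-type mESCs, and fell by 0.73 ± 0.147 (adjusted p = 0.0402). Nefl was 9.47 and 9.67 in menin-null mESCs against 9.97 and 10.06 in wild-type mESCs, and fell by 0.45 ± 0.0933 (adjusted p = 0.0454). With p adjusted over all probe sets neither passed (0.0504 for Nefm and 0.0653 for Nefl). The other Nefl probe set differed by -0.33 and did not pass (adjusted p = 0.245, over all probe sets). The partner subunits Nefh and Ina differed by 0.10 ± 0.217 and -0.05 ± 0.102.

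The other 30 genes did not pass in mESCs, and Stmn2 came nearest at 0.35 ± 0.0908 (adjusted p = 0.0873). The count of 8 rested on the wild-type mESC arrays: by limma, dropping wild-type mESC array 1 left 0 (12 before adjustment at p under 0.05), dropping wild-type mESC array 2 left 2, Stmn3 and Elavl3, and dropping any 1 of the 4 PILEC arrays left 5, namely Gap43, Stmn3, Tubb3, Mapt and Elavl3 each time. Fitted on the 4 mESC arrays alone it was 0 (11 at an unadjusted p under 0.05).

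Few genes of the other lists passed between the genotypes in mESCs, beside 1.29% that rose and 2.36% that fell over all genes. The unadjusted p by limma was under 0.05 for 3370 of all 18193 genes. Rest differed by -0.05 ± 0.0911 (adjusted p = 0.819), and of Rest and its corepressors 0 rose and 1 fell, Rcor1, which encodes the corepressor CoREST (-0.76 ± 0.132, adjusted p = 0.0252). Of 20 neurogenic factors 1 rose, Ebf3, a relative of Ebf1, at 5.64 and 5.49 in menin-null mESCs against 4.78 and 4.64 in wild-type mESCs (0.86 ± 0.105, adjusted p = 0.00811), where all arrays were low. Of 35 further synaptic genes 2 rose, with the lowest p for Nlgn2, a neuroligin of inhibitory synapses (0.59 ± 0.0913, adjusted p = 0.0181), and of 7 neural progenitor genes 1 rose and 2 fell, with the lowest p for Sox3, a neural transcription factor (-0.47 ± 0.0888, adjusted p = 0.0333). Of 8 fibroblast genes 1 rose, Thy1 (0.39 ± 0.082, adjusted p = 0.0463). By limma 0 genes passed among glial, islet, muscle and pluripotency markers, of which 0, 2, 4 and 0 had an unadjusted p under 0.05, and the lowest p in each list belonged to S100b, a calcium-binding protein (0.43 ± 0.266, adjusted p = 0.443), Neurod1, a factor of islets and neurons (-0.55 ± 0.148, adjusted p = 0.0975), Ttn, the giant sarcomere protein titin (-0.58 ± 0.13, adjusted p = 0.0576), and Esrrb, a naive stem cell factor (0.24 ± 0.16, adjusted p = 0.491).

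The gap between the menin-null and the wild-type line differed between the cell types for 5 of the 38 genes. The test was the interaction, the menin-null minus wild-type difference in PILECs minus that in mESCs. Over all genes tested it passed with a positive sign for 1.5% and with a negative sign for 1.57%. It was positive for Mapt (1.29 ± 0.16, adjusted p = 0.0119) and Gap43 (0.99 ± 0.129, adjusted p = 0.0126), which were lower in menin-null mESCs and differed by 0.27 ± 0.113 and 0.22 ± 0.0909 in PILECs. It was negative for Elavl3 (-0.93 ± 0.16, adjusted p = 0.0285), Stmn3 (-0.77 ± 0.139, adjusted p = 0.0325) and Tubb3 (-0.69 ± 0.128, adjusted p = 0.0349), which were higher in menin-null mESCs and differed by 0.03 ± 0.113, 0.20 ± 0.0982 and -0.09 ± 0.0907 in PILECs. The other Elavl3 probe sets gave -0.27 and -0.49 and did not pass (adjusted p = 0.519 and 0.348, over all probe sets). Nor did the other Stmn3 probe set (-0.65, adjusted p = 0.0841). For Mapt the other probe sets passed too, at 0.72 to 1.01 (adjusted p = 0.0157 to 0.0387). In PILECs 0 of these 5 genes passed on the probe set used for each. Another Mapt probe set rose in menin-null PILECs by 0.47 (adjusted p = 0.032, over all probe sets). The remaining Mapt probe sets differed by 0.27 and 0.32 without passing.

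Mapt reached 13.18 and 13.29 in menin-null PILECs against 13.04 and 12.89 in wild-type PILECs, and Gap43 12.65 and 12.83 against 12.56 and 12.48. Stmn3 reached 12.93 and 13.12 in menin-null PILECs against 12.89 and 12.77 in wild-type PILECs, Elavl3 12.68 and 12.87 against 12.80 and 12.68, and Tubb3 12.39 and 12.58 against 12.54 and 12.61. Among PILECs the arrays of the genotypes overlapped for Elavl3 and Tubb3, and both menin-null arrays lay above both wild-type arrays for Mapt, Gap43 and Stmn3.

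The 7 genes that rose in menin-null PILECs did not pass this test on the probe set used for each. On those probe sets their genotype difference is not shown to differ between cell types. Vamp2 came nearest (0.68 ± 0.157, adjusted p = 0.0678), followed by Syn2 (0.91 ± 0.218, adjusted p = 0.0746), Syp (1.09 ± 0.27, adjusted p = 0.0802) and Gria1 (0.94 ± 0.244, adjusted p = 0.0899). Another Syn2 probe set did pass, at 1.21 (adjusted p = 0.0178, over all probe sets). The remaining Syn2 probe sets gave -0.08 to 0.70 and did not pass. The count of 5 became 2 and 3 after dropping menin-null PILEC arrays 1 and 2, and 1 and 0 after dropping wild-type PILEC arrays 1 and 2 (13 before adjustment at p under 0.05 by limma where it was 0). It became 0 after dropping wild-type mESC array 1 or 2 (14 and 17 before adjustment at p under 0.05), and 5 and 6 after dropping menin-null mESC arrays 1 and 2.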

How the data were processed

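The deposited log2 values of 8 Affymetrix mouse arrays, 1 per probe set and array, were used as the authors deposited them, with a range of 3.26 to 15.2. RMA and Partek appear in the submitters' processing notes and another Affymetrix software in the paper's methods. Which of them made the values, and the genome build, are not given in the sources used here. Labelled cRNA was made from 6 µg of RNA. Of 45101 probe sets, 34945 had 1 gene symbol, which gave 18193 genes. For the 9010 genes with several probe sets, the one of highest mean was taken. The 64 control probe sets, 932 with several symbols and 9160 with none were left out. Symbols were checked against the GRCm38.p6 gene table through Entrez identifiers (34741 matched).

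Means of the 4 groups were fitted with limma 3.58.1 in R 4.3.3 and eBayes (residual degrees of freedom 4, prior 3.72). The contrasts compared menin-null with wild-type cells within each cell type, PILECs with mESCs within each genotype, and the genotype difference in PILECs with that in mESCs (interaction), with p adjusted by Benjamini-Hochberg over 18193 genes. With 2 arrays against 2, an exact permutation test of 1 gene cannot go below 0.333. The number of arrays limits the precision. The script was tested on simulated data. Alternatives were the arrays fitted, a replicate block, each array left out, normalization, a filter on dim genes, the variance model, the probe sets and the methods' threshold of 2-fold with p under 0.005. The leave-out counts of lists other than the neuronal genes were chosen after seeing the data.

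Every measured neuronal gene was accounted for. Values of every array are given for genes that passed between genotypes or in the interaction and for the 3 largest differences between cell types that passed in each genotype, and other lists are given as counts with Rest and the gene of lowest p between genotypes. Nefh, Stmn2, Gria3, Chgb, Nkx6-1, Gcg, Iapp, Pdx1, Ins2 and the PILEC values of Neurod1 were singled out after their values were seen. The genes and lists were chosen with earlier results of these data known.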

Additional observations from a re-analysis of the deposited data

Results flagged for a closer look

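For 5 neuronal genes the gap between the menin-null and the wild-type line differed between PILECs and mESCs by the interaction test of limma. Genotype cannot be told apart from line here. The interaction is the menin-null minus wild-type difference in PILECs minus that in mESCs. It was 1.29 for Mapt and 0.99 for Gap43, where menin-null mESCs were lower than wild-type mESCs, and -0.93 for Elavl3, -0.77 for Stmn3 and -0.69 for Tubb3, where they were higher. Of the alternatives tried, Mapt passed in 13 of 18, Gap43 in 12, Elavl3 in 9, and Stmn3 and Tubb3 in 8 each, with the same sign in all 18 for each of the 5 genes.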

How the results depend on the processing

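The counts of neuronal genes that differed between PILECs and mESCs stayed within 1.5 times under every alternative tried, at 36 to 38 genes, and 37 to 38 when 1 array was left out (38 in each case for wild type). The counts between genotypes did not. In PILECs the 7 genes were 4 with the replicate block, 0 without moderation of variances (10 at an unadjusted p under 0.05 by limma), 2 at the methods' threshold, and 0 to 10 when 1 array was left out. In mESCs the 8 were 0 on the mESC arrays alone (11 at an unadjusted p under 0.05), 5 with the replicate block, 0 without moderation (10 at an unadjusted p under 0.05), 1 at the methods' threshold, and 0 to 8 when 1 array was left out. For the interaction the 5 were 3 with the replicate block, 11 with a variance trend, 0 without moderation (14 at an unadjusted p under 0.05), 2 at the methods' threshold, and 0 to 6 when 1 array was left out. The cause was not tested. A count without 1 array takes the lone array of that group to vary like the other groups. Ncam1 turned to -0.14 in mESCs without probe sets ending in _s_at, _x_at or _a_at, where Syn1 has no probe set. The median between cell types was 3.32 in menin-null and 3.07 in wild-type cells with the mean of all probe sets, against 3.90 and 3.55. Over all genes, the deviations of same-numbered arrays correlated at -0.277 to 0.209 between groups. Such values cannot settle whether same-numbered arrays shared a batch. The number of arrays limits what small differences could be seen.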
